A study of Mus musculus with 12 samples.

Results

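The features described here were 177 of the 23238 features of a mouse liver expression array (0.762%) that were higher in fasted than in refed control liver. They were chosen by the values of the 6 control arrays alone, 3 fasted and 3 refed. A feature was taken when its lowest fasted control value lay above its highest refed control value and the means differed by at least 0.6 on the log2 scale, on which a difference of 1 is a doubling. The 6 arrays of livers without FoxO had no part in the choice, so the fasting difference in those livers is held-out data. The WT fasting difference is given only as a description of how the features were chosen.

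Livers came from 4 groups of 3 samples. L-FoxO1,3,4 fasted livers carried a deletion, limited to hepatocytes, of 3 forkhead factors (FoxO1, FoxO3 and FoxO4) and were taken after 22 h without food. L-FoxO1,3,4 refed livers had the same genotype and were taken 4 h after food was returned. WT fasted and WT refed livers came from control littermates treated in the same way, and all mice were on a mixed C57BL/6J and 129 background, with cohorts matched for age and sex. The promoter that drove the deletion and the ages were not given in the sources used here, and cells other than hepatocytes keep their FoxO genes in such a design.

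The fasted liver releases glucose, oxidises fatty acids and makes ketone bodies, and a meal reverses this through insulin. During fasting FoxO factors bind DNA in hepatocytes and activate genes such as those of glucose production, and insulin moves them out of the nucleus after feeding. Fasting also acts on the liver through other routes, such as glucagon, glucocorticoids, fatty acid sensing receptors and the nuclear receptors CAR and FXR, so a gene that is higher in fasting need not depend on FoxO.

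The 177 features held 91 annotated to 1 gene, which named 90 genes because the zinc finger gene Cpsf4l had 2 features, 14 annotated to several genes and 72 with no gene annotation. All features passed to the analysis without a filter on dim values. The WT fasting difference had a median of 0.83 and ran from 0.60 to 3.70. Just inside the limit lay an unannotated feature at 0.601 and Mmab at 0.601, and just outside it lay Slc25a47 at 0.598. A further limit was the overlap of arrays, and 1110 features in all had every fasted WT array above every refed WT array.

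Over the whole series, correlations between arrays ran from 0.967 to 0.989, and replicate 1 of the refed L-FoxO1,3,4 livers reached at most 0.976 with any other array. Hepatocyte markers were at their high levels on every array, with a summed linear level (2 raised to the log2 value, added over the 4 measured markers) of 52030.5 to 53006 in fasted L-FoxO1,3,4 livers, 51635 to 56670.3 in refed L-FoxO1,3,4 livers, 53272 to 55528 in fasted WT livers and 52683 to 55684 in refed WT livers. Of 44 listed markers of 10 other cell types, 36 were measured, and 0 of them were among the 177 features. The 3 targeted genes gave no check of the deletion, because it was not known whether their probes lie in the deleted exons. Foxo1 read 9.18, 9.33 and 9.41 in fasted L-FoxO1,3,4 livers and 9.53, 9.65 and 9.48 in fasted WT livers (log2 values, as all array values below). Foxo3 read 8.03, 7.65 and 8.01 in fasted L-FoxO1,3,4 livers and 8.10, 8.01 and 8.02 in fasted WT livers. Foxo4 was itself among the 177 features and is described with the signalling genes.

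Without FoxO, a fasting difference was seen in some of the features and not in others. Of the 177 features, 58 (32.8%) had every fasted L-FoxO1,3,4 array above every refed one, against 9.33% of all features. In the opposite direction 2 features (1.13%) had every fasted array below every refed one, against 3.5% of all features. With a difference of means of at least 0.6 as well, 42 features (23.7%) met the same rule in L-FoxO1,3,4 livers that had chosen them in WT livers, against 1.53% of all features. The median fasted minus refed difference in L-FoxO1,3,4 livers was 0.42 over the 177 features (quartiles 0.03 and 0.68, range -1.03 to 3.31) and 0.05 over all features. The fasted mean was above the refed mean for 134 of the 177 features (75.7%) and for 59.7% of all features.

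No single feature passed the test across the array. Limma, fitted to the 6 L-FoxO1,3,4 arrays with Benjamini-Hochberg adjustment over all 23238 features, called 0 features (0% of the array) at an adjusted p under 0.05, and the smallest adjusted p was 0.725. At an unadjusted p under 0.05, 59 of the 177 features (33.3%) were higher in fasted L-FoxO1,3,4 livers, against 5.19% of all features, and 2 (1.13%) were lower, against 1.47%. So the statements on single genes below are values with their spread, and each named gene had an adjusted p of 0.725 or more. The differences between genotypes have no test, because the WT arrays chose the features.

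**Figure D1:**
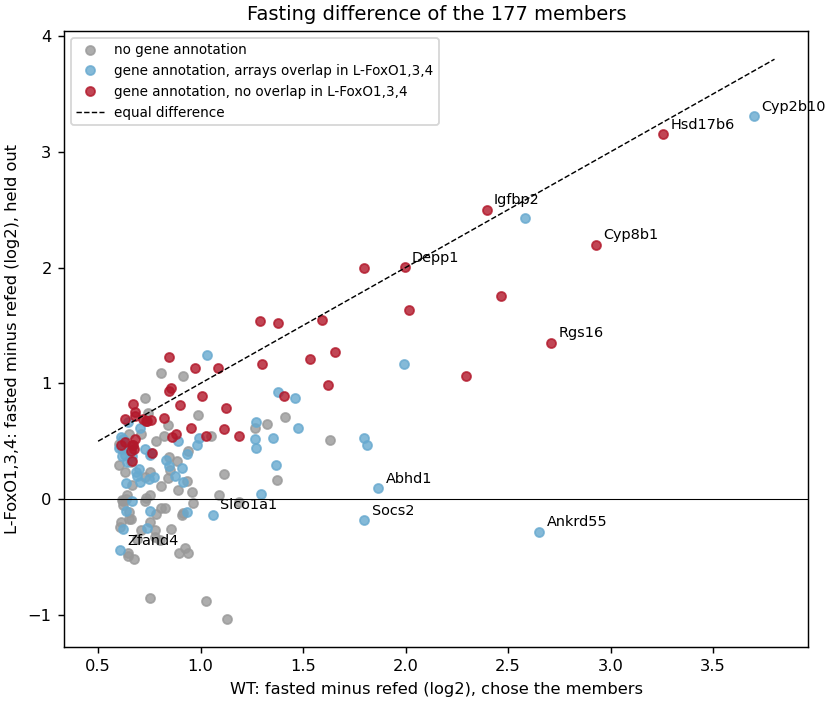
Fasted minus refed difference of each of the 177 features (log2), in L-FoxO1,3,4 livers on the vertical axis and in WT livers, which chose the features, on the horizontal axis, with points coloured by annotation and by overlap of the L-FoxO1,3,4 arrays and a dashed line at equal differences. Hsd17b6, Igfbp2 and Depp1 lie near the dashed line, and Ankrd55, Socs2 and Slco1a1 lie just below a difference of 0.

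The size of the WT difference and that in L-FoxO1,3,4 livers went together over the features (Pearson's r = 0.66, n = 177 features on the same arrays, a description without a test). Among the 81 features with a WT difference of 0.6 to 0.8, 21 (25.9%) had no overlap of fasted above refed L-FoxO1,3,4 arrays and the median difference was 0.30. Among the 22 with a WT difference of 1.5 or more, 13 (59.1%) had none and the median was 1.31. The L-FoxO1,3,4 difference was at least as large as the WT one for 20 of the 177 features, though the choice raises the WT value.

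The fasting difference without FoxO was found mainly in annotated features. It was also more frequent in brighter features, but this held for all features of the array too. Of the 91 features with 1 gene, 44 (48.4%) had every fasted L-FoxO1,3,4 array above every refed one, against 10.8% of all such features on the array, and their median difference was 0.53. Of the 14 with several genes 5 (35.7%) did, against 7.89% of all such features, with a median of 0.64. Of the 72 without annotation 9 (12.5%) did, against 6.44% of all unannotated features, and their median was 0.04. Annotation and brightness overlap here, since 39 of the 43 features with a mean value under 5 had no annotation. At mean values under 7, 10 of the 29 features with 1 gene (34.5%) were free of overlap, against 5.98% of all such features. Of the 67 unannotated features at that level 8 (11.9%) were, against 4.86%. The median differences were 0.46 and 0.04. Of these 67 unannotated features 39 had a mean value under 5, so brightness was not matched within this level. The contrast at this level thus does not part annotation from brightness.

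**Figure D2:**
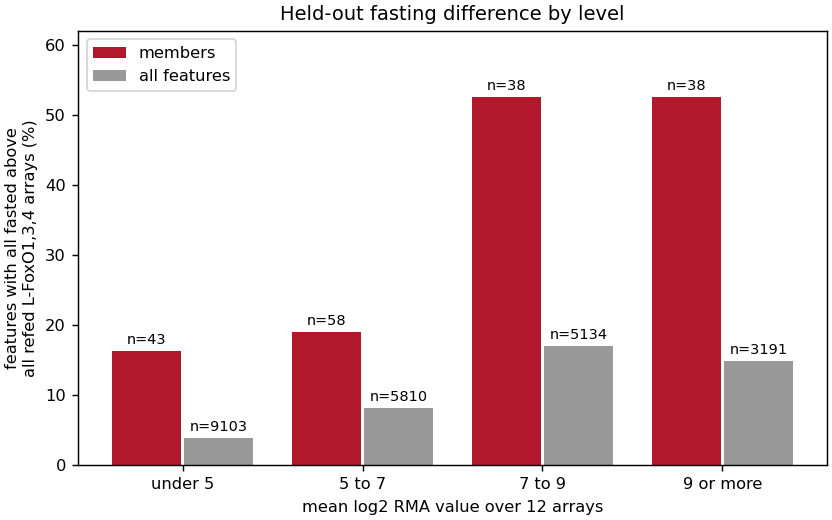
Share of features (%) with every fasted L-FoxO1,3,4 array above every refed one, by mean log2 value over the 12 arrays, for the 177 features (red) and all features (grey), with the number of features above each bar. The share was 16.3% of 43 dim features under 5 and 52.6% of the 38 features at 9 or more, against 3.82% and 14.8% of all features at those levels.

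Per array, the median of the 105 annotated features was 8.42, 8.09 and 8.05 in fasted L-FoxO1,3,4 livers and 7.34, 7.53 and 7.62 in refed L-FoxO1,3,4 livers. In WT livers it was 8.84, 8.81 and 8.71 fasted and 7.36, 7.94 and 7.48 refed. In these medians the fasted L-FoxO1,3,4 livers lay above all refed livers and below all fasted WT livers. The choice of features raises the fasted WT medians and lowers the refed WT ones, so the distances to WT livers are a description. For the 72 unannotated features the medians were 4.93, 4.69 and 5.04 in fasted L-FoxO1,3,4 livers and 4.77, 4.57 and 4.86 in refed ones, which overlapped, and 5.12, 5.27 and 5.27 in fasted WT livers against 4.29, 4.38 and 4.34 in refed WT livers.

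**Figure D3:**
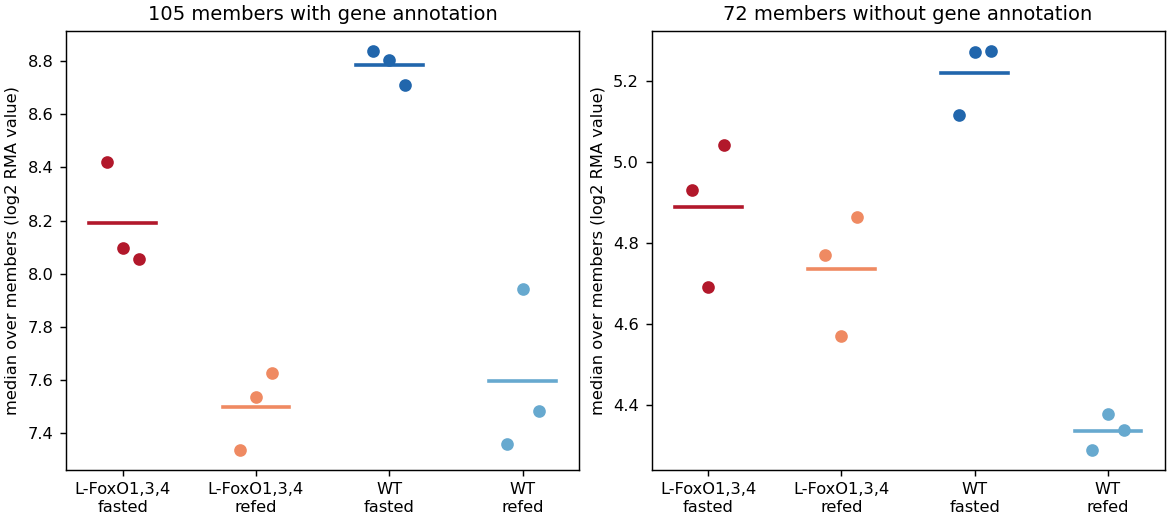
Median log2 value over the 105 annotated features (left) and the 72 unannotated features (right) on each array, 1 point per array with a bar at the group mean. In the annotated features the fasted L-FoxO1,3,4 arrays lie between 8.05 and 8.42, above all refed arrays and below the fasted WT arrays at 8.71 to 8.84. The WT arrays chose the features, which raises their fasted and lowers their refed medians.

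In fasted livers the 177 features were mostly lower without FoxO. The fasted L-FoxO1,3,4 mean lay inside the range of the fasted WT arrays for 49 features and above it for 13. It lay between the lowest fasted and the highest refed WT array for 58 and at or below the highest refed WT array for 57. The L-FoxO1,3,4 minus WT difference in fasted livers had a median of -0.38, against 0.00 over all features. Every fasted L-FoxO1,3,4 array was below every fasted WT array for 60 features (33.9%), against 7.46% of all features, and above for 2 (1.13%), both unannotated, against 10.9%. The choice itself favours high fasted WT values and so lowers this difference.

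A comparison free of the choice was made with fasted WT arrays that took no part in it. The rule was applied to 5 WT arrays at a time, and the left-out fasted array and the fasted L-FoxO1,3,4 mean were both set against the same refed WT mean. Among features with 1 gene, 145, 125 and 157 were chosen when fasted WT replicate 1, 2 or 3 was left out. Their median difference was 0.46, 0.49 and 0.42 in fasted L-FoxO1,3,4 livers and 0.60, 0.76 and 0.60 in the left-out WT array. The fasted L-FoxO1,3,4 mean was below the left-out array by a median of -0.19, -0.25 and -0.17, against 0.01, -0.03 and 0.01 over all features with 1 gene. Over all chosen features, annotated or not, the L-FoxO1,3,4 minus left-out difference was 0.03, -0.15 and -0.03, against 0.04, -0.02 and 0.02 over all features. The lower fasted level without FoxO was thus seen for features with 1 gene with each left-out array, by less than the -0.38 of the 177 features, and over all chosen features it was close to the whole array except with replicate 2 left out.

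**Figure D4:**
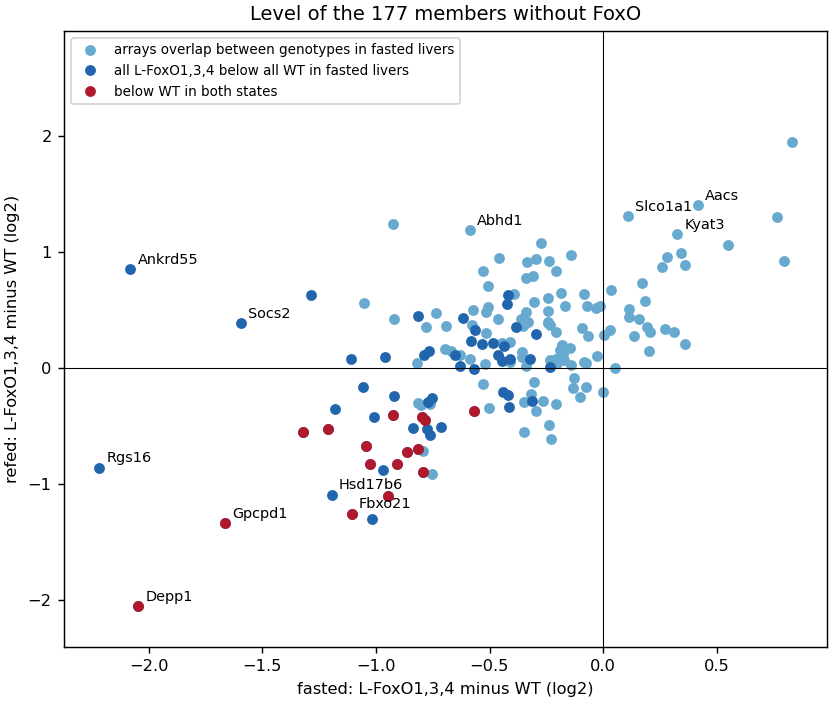
L-FoxO1,3,4 minus WT difference (log2) of each of the 177 features, in fasted livers on the horizontal axis and in refed livers on the vertical axis, coloured by overlap between the genotypes. Depp1, Gpcpd1 and Fbxo21 lie at the lower left, below WT in both states, and Aacs, Slco1a1 and Kyat3 lie above WT in refed livers.

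In refed livers the median difference between L-FoxO1,3,4 and WT was 0.16, against -0.03 over all features, and here the choice favours low refed WT values and raises the difference. Every refed L-FoxO1,3,4 array was above every refed WT array for 24 features (13.6%), against 6.42% of all features, and below for 20 (11.3%), against 12.1%. With each refed WT array left out of the choice, the features with 1 gene lay below that array by a median of -0.11, -0.34 and -0.14 in refed L-FoxO1,3,4 livers, against -0.03, -0.07 and -0.07 over all features with 1 gene. Over all chosen features the medians were -0.07, -0.21 and -0.00, against -0.02, -0.06 and -0.04 over all features. The higher refed level without FoxO was therefore not seen against left-out arrays. Among the 177 features it lay mainly in those without annotation, whose refed difference had a median of 0.37, against 0.02 in those with 1 gene.

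Summed levels of markers of other cells moved with these values in part. Kupffer cell and macrophage markers summed to 2313 to 3115 in fasted L-FoxO1,3,4 livers and 3348 to 3951 in fasted WT livers, without overlap (7 of 7 measured). In refed livers they summed to 2638 to 3794 in L-FoxO1,3,4 and 2416 to 3956 in WT livers. The 4 neutrophil markers summed to 72.9 to 88.4 in fasted L-FoxO1,3,4 livers, 62.5 to 86.4 in refed L-FoxO1,3,4 livers, 68.9 to 89.9 in fasted WT livers and 82.8 to 509 in refed WT livers, where replicates differed widely. Their part in the results was not tested, and in whole liver fewer cells of a type and less RNA per cell cannot be told apart.

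Bile acid genes were the fixed list with the most members. Bile acids are made from cholesterol in hepatocytes, pumped into bile and taken up again from portal blood. Of the 10 listed genes, all measured, 5 were among the 177 features, namely the enzymes Cyp7a1 and Cyp8b1, the canalicular bile salt export pump Abcb11 and the uptake transporters Slco1a1 and Slco1a4. In L-FoxO1,3,4 livers 3 of the 10 listed genes had every fasted array above every refed one (Cyp8b1, Cyp27a1 and Slco1a4), 0 had the opposite, and limma called 0. Of all features 9.33% had the first and 3.5% the opposite. The first share was 14.8% among all features with a mean value of 9 or more.

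Cyp8b1, the sterol 12-alpha-hydroxylase that sets how much cholic acid is made, read 11.20, 10.87 and 10.80 in fasted L-FoxO1,3,4 livers and 7.55, 9.07 and 9.67 in refed L-FoxO1,3,4 livers. In WT livers Cyp8b1 read 11.32, 10.29 and 12.00 fasted and 8.77, 8.48 and 7.57 refed. The fasted L-FoxO1,3,4 values lay within the fasted WT range, and the difference was 2.20 (SE 0.516, 4.58-fold) in L-FoxO1,3,4 livers and 2.93 in WT livers. Cyp7a1, the rate-limiting enzyme of the classical pathway, read 11.14, 12.18 and 11.14 in fasted and 11.50, 11.47 and 11.80 in refed L-FoxO1,3,4 livers. WT livers gave 12.09, 12.24 and 12.21 for Cyp7a1 fasted and 11.64, 11.55 and 11.10 refed. A single fasted L-FoxO1,3,4 liver was at the fasted WT level for Cyp7a1 and the other two lay below all refed L-FoxO1,3,4 livers, with a difference of -0.10 (SE 0.30, 95% interval -0.83 to 0.62).

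The organic anion transporters Slco1a4 and Slco1a1 both read higher in refed L-FoxO1,3,4 livers than in refed WT livers. The choice favours low refed WT values and so raises this difference, which was not tested. Slco1a4 read 10.36, 10.25 and 9.91 in fasted L-FoxO1,3,4 livers and 8.96, 9.12 and 9.48 in refed ones, a difference of 0.98 (SE 0.189). Fasted WT livers gave 10.04, 10.60 and 9.77 for Slco1a4, at the same level, and refed WT livers gave 8.51, 8.56 and 8.48, below all refed L-FoxO1,3,4 livers. Slco1a1 read 11.98, 11.45 and 11.19 in fasted and 11.84, 11.54 and 11.66 in refed L-FoxO1,3,4 livers, against 11.69, 11.64 and 10.97 in fasted and 10.89, 10.24 and 9.98 in refed WT livers. Refed L-FoxO1,3,4 livers thus held the fasted WT level of Slco1a1, 1.31 above refed WT livers, and the difference between feeding states was -0.14 (SE 0.217). Abcb11 differed by 0.52 (SE 0.250) in L-FoxO1,3,4 livers, where the arrays overlapped, and by 0.62 in WT livers.

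Cyp2b10, a cytochrome P450 known as a target of the nuclear receptor CAR, had the largest WT difference, 3.70. It read 8.51, 10.56 and 9.68 in fasted and 4.93, 5.20 and 8.70 in refed L-FoxO1,3,4 livers, against 9.50, 10.67 and 8.02 in fasted and 7.08, 4.79 and 5.21 in refed WT livers. In refed L-FoxO1,3,4 livers replicate 3 was as high as a fasted liver, so that the groups overlapped, and the difference was 3.31 (SE 1.07). Of the 15 listed genes of xenobiotic metabolism, 6 were measured and Cyp2b10 was the 1 among the 177 features. In that list 0 genes were free of overlap in L-FoxO1,3,4 livers in either direction.

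Hsd17b6, a steroid and retinol dehydrogenase, read 11.45, 10.63 and 11.50 in fasted and 6.12, 8.24 and 9.75 in refed L-FoxO1,3,4 livers. WT livers gave 12.29, 12.53 and 12.34 for Hsd17b6 fasted and 7.13, 10.92 and 9.33 refed. The fasted L-FoxO1,3,4 livers were all below the fasted WT livers (difference of means -1.20) while the fasting difference was of like size, 3.15 (SE 0.865) in L-FoxO1,3,4 and 3.26 in WT livers, with refed values that spread widely in both genotypes. Apom, the apolipoprotein that carries sphingosine 1-phosphate on HDL, read 9.76, 9.09 and 9.42 in fasted and 7.18, 7.85 and 8.33 in refed L-FoxO1,3,4 livers. Fasted WT livers gave 9.30, 9.65 and 9.86 for Apom and refed WT livers 8.14, 7.52 and 7.10. Apom thus overlapped between genotypes in both states, with a fasting difference of 1.64 (SE 0.319) without FoxO and 2.02 in WT livers.

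Sult5a1, a sulfotransferase, had the smallest unadjusted p of the named genes, with 6.82, 6.23 and 6.23 in fasted and 4.54, 4.80 and 5.30 in refed L-FoxO1,3,4 livers (difference 1.55, SE 0.254). In fasted WT livers it read 5.35, 6.00 and 8.32, so that its WT mean rested on replicate 3, and in refed WT livers 5.10, 4.74 and 5.04. Kyat3, a kynurenine aminotransferase, averaged 10.62 ± 0.60 in fasted and 9.45 ± 0.93 in refed L-FoxO1,3,4 livers, against 10.29 ± 0.13 in fasted and 8.30 ± 0.64 in refed WT livers (SD, n = 3 each). The refed L-FoxO1,3,4 arrays of Kyat3 were all above the refed WT arrays, a position that the choice favours. The fasting difference of Kyat3 without FoxO was 1.17 (SE 0.512). The secretory pathway kinase family member Dipk1a differed by 1.27 (SE 0.409) and glycophorin C (Gypc), a membrane protein of red cells, by 1.23 (SE 0.255), both without overlap. The 1 measured erythroid marker of 4 listed went the other way, with -0.46 in L-FoxO1,3,4 and -0.46 in WT livers.

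Features with several genes lay outside the rule for named genes, and those given here were chosen after their values were seen. They included cytochromes P450 and apolipoproteins. The 3 features shared by Cyp2c37, Cyp2c50 and Cyp2c54, cytochromes P450 that the probes did not tell apart, differed by 2.43, 1.06 and 0.67 in L-FoxO1,3,4 livers. The 2 features shared by Apol9a and Apol9b differed by 2.0 and 1.54, both without overlap. These near-identical copies can share signal, so the gene behind it is uncertain.

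Of 14 listed genes of insulin and growth hormone signalling 11 were measured and 2 were among the 177 features. In L-FoxO1,3,4 livers Insr, Irs1 and Igfbp2 had every fasted array above every refed one, Ghr had the opposite, and limma called 0 in the list. The shares of all features were 9.33% and 3.5%. Igfbp2, a secreted binding protein of insulin-like growth factors, read 10.83, 10.25 and 10.36 in fasted and 6.83, 8.01 and 9.10 in refed L-FoxO1,3,4 livers. In WT livers Igfbp2 read 10.65, 10.55 and 10.86 fasted and 8.03, 8.84 and 8.01 refed. The fasting difference of Igfbp2 was 2.50 (SE 0.543, 5.66-fold) without FoxO and 2.40 in WT livers, and the genotypes overlapped in both states.

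Socs2, the inhibitor of growth hormone signalling, read 9.15, 7.45 and 9.43 in fasted and 8.60, 8.74 and 9.23 in refed L-FoxO1,3,4 livers, against 9.95, 10.83 and 10.04 in fasted and 9.15, 8.31 and 7.96 in refed WT livers. All fasted L-FoxO1,3,4 livers lay below all fasted WT livers, and the fasting difference without FoxO was -0.18 (SE 0.521, 95% interval -1.43 to 1.07). In the WT livers that chose the feature it was 1.8. Foxo4, itself targeted, read 6.99, 6.89 and 7.35 in fasted and 5.68, 6.39 and 6.78 in refed L-FoxO1,3,4 livers, against 7.07, 7.70 and 6.96 in fasted and 6.20, 5.86 and 6.29 in refed WT livers. The signal of Foxo4 overlapped between the genotypes in both states and differed by 0.79 (SE 0.293) between feeding states there. All 3 targeted genes were free of overlap, fasted above refed, in WT livers, and Foxo1 and Foxo4 were so in L-FoxO1,3,4 livers.

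**Figure D5:**
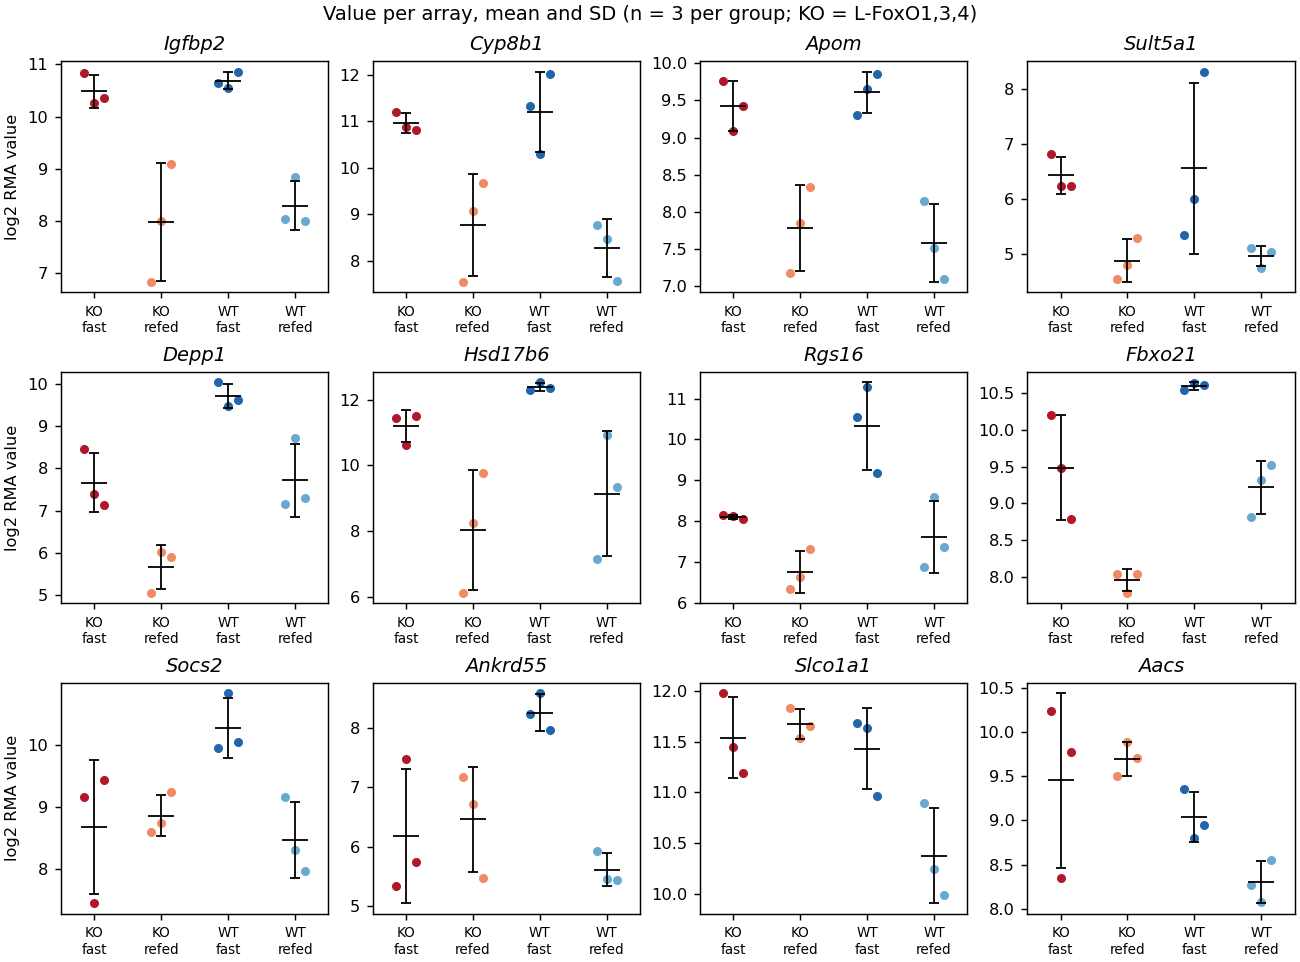
Log2 values of 12 of the 177 features on each array, 1 point per array with mean and SD (n = 3 per group), where KO stands for L-FoxO1,3,4 and each panel has its own axis. In the top row the fasted L-FoxO1,3,4 arrays reach the fasted WT level, and in the bottom row the L-FoxO1,3,4 arrays overlap between feeding states. In the middle row the fasted L-FoxO1,3,4 arrays lie above all refed L-FoxO1,3,4 arrays and below all fasted WT arrays. For Rgs16 in that row the fasting difference is 1.35 in L-FoxO1,3,4 livers and 2.71 in WT livers.

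Some features had a fasting difference without overlap in L-FoxO1,3,4 livers at a lower level than in WT livers. Of the 58 features without overlap, 29 overlapped with WT in both states. When fasted, 23 lay below WT, against 7.46% of the whole array. When refed, 16 did, against 12.1%, and 12 did in both states, against 2.42%. These counts include the WT arrays used for the choice. That choice favours high fasted WT values, which raises the fasted count, and low refed WT values, which lowers the refed one. Depp1, described in human cells as a FoxO target and linked to autophagy, read 8.46, 7.39 and 7.14 in fasted and 5.06, 6.02 and 5.90 in refed L-FoxO1,3,4 livers. WT livers gave 10.04, 9.48 and 9.62 for Depp1 fasted and 7.14, 8.71 and 7.29 refed. Its fasting difference was 2.0 (SE 0.411) without FoxO and 2.0 in WT livers, and the L-FoxO1,3,4 minus WT difference was -2.05 in fasted and -2.05 in refed livers. Fbxo21, an F-box protein of a ubiquitin ligase, read 10.20, 9.48 and 8.78 in fasted and 8.05, 7.79 and 8.05 in refed L-FoxO1,3,4 livers. In WT livers Fbxo21 read 10.54, 10.64 and 10.60 fasted and 8.81, 9.32 and 9.52 refed. For both genes all L-FoxO1,3,4 livers were below all WT livers of the same state, and the difference of Fbxo21 was 1.53 (SE 0.343) without FoxO and 1.38 in WT livers.

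Rgs16, which speeds GTP hydrolysis by G protein alpha subunits, had the most negative fasted difference between genotypes among the named genes. It read 8.14, 8.13 and 8.05 in fasted and 6.33, 6.62 and 7.32 in refed L-FoxO1,3,4 livers, against 10.54, 11.28 and 9.16 in fasted and 6.88, 8.60 and 7.37 in refed WT livers. The fasted L-FoxO1,3,4 livers were alike, with a difference from fasted WT livers of -2.22, and the fasting difference was 1.35 (SE 0.253) without FoxO and 2.71 in WT livers.

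Every L-FoxO1,3,4 array was below every WT array in both states for 16 features (9.04%), against 2.42% of all features, and the WT arrays that chose the features enter this count. Of these, 15 had 1 gene (16.5% of the 91, against 3.24% of all features with 1 gene) and named 14 genes, namely Cbx7, Cpsf4l, Depp1, Emp2, Erbb3, Fbxo21, Gpcpd1, Gstt2, Rnf125, Slc2a5, Ssbp2, Tmem140, Tmtc2 and Ypel3. Those outside the rule for named genes are listed because of their values. Gpcpd1, a glycerophosphodiester phosphodiesterase, read 9.60, 9.18 and 8.89 in fasted and 8.89, 8.50 and 8.69 in refed L-FoxO1,3,4 livers, against 10.38, 10.40 and 11.89 in fasted and 10.22, 9.79 and 10.09 in refed WT livers. The receptor tyrosine kinase gene Erbb3 had an L-FoxO1,3,4 minus WT difference of -0.91 in fasted and -0.83 in refed livers, with a fasting difference of 0.82 (SE 0.215) without FoxO. Slc2a5, the fructose transporter GLUT5, had a fasting difference of 0.96 (SE 0.188) without FoxO and was below WT in both states. The ubiquitin ligase gene Rnf125 read 9.73, 9.53 and 9.22 in fasted and 9.54, 9.69 and 9.29 in refed L-FoxO1,3,4 livers, against 10.79, 10.34 and 10.98 in fasted and 9.997, 10.23 and 9.88 in refed WT livers. Rnf125 thus had a fasting difference of -0.01 (SE 0.176) and lay below WT throughout.

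The forkhead core GTAAACA, which FoxO and FoxA factors both bind, was searched on both strands of RefSeq promoters of build GRCm38.p6, 250 bases before to 50 after the gene's start. Promoters matched 69 of the 90 genes, and 7 of these (10.1%) held the core, against 4.05% of 27025 genes. The variant CAAAACA, which can share end letters with the first where they abut, was in 4 (5.80%), against 7.20%. Among the 14 genes below WT in both states 10 had a promoter and 3 held GTAAACA, and among the other genes 4 of 59 did. A match in these windows is a description of the letters and not of binding. The promoters of these 3 genes are shown, a choice made after their values were seen, with the core on either strand in capitals, for Tmem140 at chr6:34862896-34863195 on the plus strand, for Ypel3 at chr7:126776713-126777012 on the plus strand and for Cpsf4l at chr11:113709968-113710267 on the minus strand, where Cpsf4l has a second start whose promoter holds no core.
Tmem140: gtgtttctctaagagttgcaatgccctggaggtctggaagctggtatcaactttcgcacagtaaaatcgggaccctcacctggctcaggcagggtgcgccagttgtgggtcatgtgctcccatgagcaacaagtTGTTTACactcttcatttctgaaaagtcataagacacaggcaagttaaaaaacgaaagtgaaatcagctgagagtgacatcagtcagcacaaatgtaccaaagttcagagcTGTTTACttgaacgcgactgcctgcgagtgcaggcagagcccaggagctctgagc
Ypel3: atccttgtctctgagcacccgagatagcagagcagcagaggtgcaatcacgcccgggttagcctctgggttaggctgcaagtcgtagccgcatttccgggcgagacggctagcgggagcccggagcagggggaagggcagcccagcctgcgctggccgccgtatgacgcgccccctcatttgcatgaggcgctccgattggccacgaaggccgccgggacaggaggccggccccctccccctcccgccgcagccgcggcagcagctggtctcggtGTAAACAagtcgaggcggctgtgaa
Cpsf4l: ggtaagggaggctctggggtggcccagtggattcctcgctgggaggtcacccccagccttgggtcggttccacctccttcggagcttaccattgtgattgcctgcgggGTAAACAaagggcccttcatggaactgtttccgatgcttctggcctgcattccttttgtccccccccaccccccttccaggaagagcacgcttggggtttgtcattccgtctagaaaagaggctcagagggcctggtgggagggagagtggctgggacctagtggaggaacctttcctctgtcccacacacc
Tmem140, a membrane protein gene, held the core at 2 places and had a fasting difference of 0.47 (SE 0.201) without FoxO, and an L-FoxO1,3,4 minus WT difference of -1.03 in fasted livers. Ypel3, of the yippee-like family, had a difference of 0.40 (SE 0.173) and an L-FoxO1,3,4 minus WT difference of -1.04 in fasted livers. The brighter Cpsf4l feature had a difference of 0.49 (SE 0.138) and one of -0.86 between the genotypes in fasted livers.

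The L-FoxO1,3,4 arrays of 117 features overlapped between feeding states, which does not show that they were equal. Their fasted mean was above the refed mean for 76 and below it for 41, and the median difference was 0.19 (range -1.03 to 3.31). Of these features 35 were below WT in fasted livers, 22 were above WT in refed livers and 60 overlapped between the genotypes in both states. Among all features 7.46% were below WT in fasted livers and 6.42% above WT in refed livers. The WT arrays that chose the features enter these counts. Ankrd55, an ankyrin repeat gene, read 5.34, 7.47 and 5.73 in fasted and 7.18, 6.72 and 5.47 in refed L-FoxO1,3,4 livers. In WT livers Ankrd55 read 8.23, 8.59 and 7.96 fasted and 5.93, 5.45 and 5.44 refed. All fasted L-FoxO1,3,4 livers were below all fasted WT livers, and the fasting difference was -0.28 (SE 0.662, 95% interval -1.87 to 1.31) without FoxO. In the WT livers that chose the feature it was 2.65, and the difference between the genotypes was not tested. Abhd1, of the alpha/beta hydrolase family, read 7.89, 9.71 and 9.99 in fasted and 7.90, 9.85 and 9.56 in refed L-FoxO1,3,4 livers, against 9.86, 9.86 and 9.64 in fasted and 7.83, 8.08 and 7.84 in refed WT livers. Replicate 1 of both L-FoxO1,3,4 groups was at the refed WT level of Abhd1 and the other replicates at the fasted WT level, with no fasting difference of the means beyond 0.09 (SE 0.714). Abca8a, a lipid transporter of the ABC family, averaged 8.47 ± 0.37 in fasted and 8.42 ± 0.07 in refed L-FoxO1,3,4 livers, against 8.81 ± 0.17 in fasted and 7.51 ± 0.97 in refed WT livers (SD, n = 3 each).

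Aacs, acetoacetyl-CoA synthetase, which turns the ketone body acetoacetate into a substrate of lipid synthesis, read 10.24, 8.34 and 9.78 in fasted and 9.51, 9.89 and 9.70 in refed L-FoxO1,3,4 livers. WT livers gave 9.35, 8.81 and 8.95 for Aacs fasted and 8.27, 8.08 and 8.55 refed. All refed L-FoxO1,3,4 livers were above even the fasted WT livers, the fasted L-FoxO1,3,4 livers lay on both sides of them, and the fasting difference without FoxO was -0.25 (SE 0.469). Keg1, chosen here after its values were seen, was likewise above WT in refed livers, by 0.96, with a fasting difference of 0.20 (SE 0.183) without FoxO. The RING finger gene Rnf225 was 0.57 above WT in refed L-FoxO1,3,4 livers and differed by -0.26 (SE 0.255) between feeding states, while in fasted livers its difference from WT was -0.30. Gpr173, an orphan receptor gene, was below WT in all fasted L-FoxO1,3,4 livers and differed by -0.10 (SE 0.155). The choice favours high fasted and low refed WT values, so these distances to WT livers are a description.

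Among genes of fuel metabolism few were in the group. Of 9 listed gluconeogenic genes 8 were measured and Slc37a4, the glucose 6-phosphate transporter of the endoplasmic reticulum, was the 1 among the 177 features. It read 11.42, 11.38 and 11.71 in fasted and 10.38, 11.31 and 11.28 in refed L-FoxO1,3,4 livers, and its difference of 0.51 (SE 0.272) was 0.21 without refed replicate 1. Fasted WT livers gave 11.35, 11.87 and 11.71 for Slc37a4 and refed WT livers 11.26, 10.66 and 10.99. Of the 8 measured genes Fbp1 and Slc37a4 had every fasted L-FoxO1,3,4 array above every refed one, against 9.33% of all features. The gluconeogenic genes Pck1 and G6pc did not meet the rule, with WT fasting differences of -0.01 and 0.21.

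Of 21 listed genes of amino acid catabolism and the urea cycle, 15 were measured and 2 were among the 177 features. Prodh2, the hydroxyproline dehydrogenase, read 10.12, 10.17 and 9.91 in fasted and 9.004, 9.54 and 9.49 in refed L-FoxO1,3,4 livers, against 10.23, 10.17 and 10.19 in fasted and 9.33, 9.67 and 9.54 in refed WT livers. Its difference was 0.72 (SE 0.177) without FoxO and 0.68 in WT livers, and the genotypes overlapped in both states. Otc, the ornithine transcarbamylase of the urea cycle, averaged 11.47 ± 0.15 in fasted and 11.20 ± 0.26 in refed L-FoxO1,3,4 livers, against 11.71 ± 0.16 in fasted and 10.81 ± 0.34 in refed WT livers (SD, n = 3 each), with overlap between the feeding states without FoxO. In this list Asl and Prodh2 were free of overlap, fasted above refed, in L-FoxO1,3,4 livers, against 9.33% of all features.

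The other fixed lists held 0 of the 177 features, and limma called 0 genes in each. Measured genes numbered 15 for FoxO targets reported in liver, 20 for fatty acid oxidation, 3 for ketogenesis, 11 for the integrated stress response, 15 for lipogenesis, 13 for cholesterol synthesis and uptake, 10 for lipid breakdown and lipoproteins, 9 for the glucocorticoid response, 10 for autophagy and lysosome, 12 for the circadian clock and 9 for the acute phase. In L-FoxO1,3,4 livers the FoxO targets Gadd45a, Sesn3, Insr and Klf15 had every fasted array above every refed one and Pdk4 and Txnip had the opposite. Likewise above were Ehhadh of fatty acid oxidation, Bdh1 of ketogenesis, Chac1 and Atf5 of the stress response, Apoa4 of the lipoproteins, and Gabarapl1, Lamp1 and Tfeb of autophagy. Below were Fgf21, listed under oxidation and stress, Thrsp and Pnpla3 of lipogenesis, and Cd36. Of all features 9.33% were above and 3.5% below in this way, so these genes are named as a description of the lists only. In WT livers the fasted minus refed difference of Pdk4 was -1.30, also without overlap, and that of Txnip was 0.39. The WT differences of Gadd45a, Sesn3, Insr and Klf15 were -0.16, 0.21, 0.12 and 0.20. The median fasted minus refed difference over cholesterol genes was -0.02 in L-FoxO1,3,4 livers and 0.47 in WT livers, although 0 of them met the rule. In WT livers 0 of the cholesterol genes had every fasted array above every refed one. Refed WT values spread widely for some of them, such as Sqle, from 7.33 to 10.68. Over all features the medians were 0.05 in L-FoxO1,3,4 livers and -0.01 in WT livers. The median over fatty acid oxidation genes was 0.16 in L-FoxO1,3,4 livers and -0.20 in WT livers.

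The median over the 177 features depends on which WT arrays chose them. With a WT array left out, the rule takes more features, and the median L-FoxO1,3,4 fasting difference was 0.26, 0.23 and 0.26 without fasted WT replicate 1, 2 and 3, and 0.15, 0.28 and 0.25 without refed WT replicate 1, 2 and 3. The refed L-FoxO1,3,4 minus WT median was 0.40, 0.35 and 0.33 without refed WT replicate 1, 2 and 3. These values use the kept refed WT arrays, which chose the features, and so are raised by the choice. Against the left-out array itself the medians were -0.07, -0.21 and -0.00. Without replicate 1 of the refed L-FoxO1,3,4 livers, which stood apart, 75 of the 177 features (42.4%) were free of overlap, against 15.6% of all features, and the median difference was 0.39.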

How the data were processed

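RNA from whole liver was labelled with biotin and hybridised to 1-colour mouse arrays. Values were made with RMA and Partek, per the submitters' processing notes, and neither their versions nor the annotation's genome build is stated in the sources used here. The deposited values were log2 values, 1 per feature, for 23238 features on 12 arrays, with array medians of 5.79 to 5.90. Signal over background is not given, and the number of arrays limits the precision. The platform annotation names 1 gene for 14939 features, several for 989 and none for 7310. It can be old.

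The features were selected on the 6 WT arrays as stated above. Limma 3.58.1 in R 4.3.3 compared fasted with refed samples in the 6 L-FoxO1,3,4 arrays, with 4 residual degrees of freedom, a prior of 2.42, two-sided p-values and Benjamini-Hochberg adjustment over all features. Intervals come from the same fit. The fit was tested on simulated data with known changes in some features. At an adjusted p under 0.05 it recovered 0% of 59 features changed 1.5-fold and 56.9% of 72 changed 2-fold. Of 69 changed 4-fold it recovered 87%, and it called 6 unchanged features. The simulation drew independent normal noise with the moderated spread of the fit, so it can overstate recovery in the real data. In the real data Igfbp2, with a log2 difference of 2.50, and Hsd17b6, with 3.15, were not called (limma adjusted p = 0.725). The 0 calls thus do not show that changes, small or large, were absent. Named genes were the 10 with the largest WT difference, the 10 with the largest L-FoxO1,3,4 difference without overlap, the 10 with the smallest, and every list member, each by its brightest feature with 1 gene, 29 in all; others are said to be chosen after their values were seen. The features, lists and tests were chosen with earlier results of these data known. No label states that samples are separate animals, so p-values measure the spread between samples, which may be technical. Alternatives were the limit on the WT difference, the removal of the 30% dimmest features, cyclic loess, median centring, a fit to all 12 arrays, array weights, a trended robust prior, an adjusted p under 0.1 and leaving out each array.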

Additional observations from a re-analysis of the deposited data

Results flagged for a closer look

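The fasting difference of 2 features ran in opposite directions in every array of the genotypes. For Zfand4, an AN1 zinc finger gene, fasted L-FoxO1,3,4 livers read 7.25, 7.07 and 7.03 and refed L-FoxO1,3,4 livers 7.79, 7.57 and 7.32, a difference of -0.44 (SE 0.153, limma adjusted p = 0.725 over all features), whereas fasted WT livers read 7.38, 7.82 and 7.42 and refed WT livers 7.37, 7.12 and 6.31. An unannotated feature gave 3.54, 3.77 and 3.68 in fasted and 4.33, 3.97 and 4.24 in refed L-FoxO1,3,4 livers, a difference of -0.52 (SE 0.139, limma adjusted p = 0.725), and 4.66, 4.83 and 4.84 in fasted against 3.45, 4.64 and 4.21 in refed WT livers. The WT direction is fixed by the choice of the features, and the difference between the genotypes was not tested.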

How the results depend on the processing

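Each alternative kept the sign of the median L-FoxO1,3,4 fasting difference and of both genotype medians. The genotype medians get their signs in part from the choice on WT arrays, which each alternative repeats, so their kept signs show nothing further. Against left-out refed WT arrays the refed medians over all chosen features were -0.07, -0.21 and -0.00. Against left-out fasted WT arrays the fasted ones were 0.03, -0.15 and -0.03. With a WT difference of at least 0.4, 364 features were chosen, of which 95 were free of overlap in L-FoxO1,3,4 livers, and their median difference was 0.27. With at least 1, 53 were chosen, 25 were free of overlap, the median difference was 0.71 and the fasted L-FoxO1,3,4 minus WT median was -0.51. For both limits the share of all features free of overlap was 9.33%. Cyclic loess gave a median of 0.31 with 46 of 182 features free of overlap (25.3%, against 5.76% of all features). Leaving out each array in turn gave 177 to 351 features, 60 to 87 without overlap, a median L-FoxO1,3,4 difference of 0.15 to 0.43, a fasted L-FoxO1,3,4 minus WT median of -0.45 to -0.30 and a refed one of 0.10 to 0.40. A left-out WT array loosens the rule by its construction. Limma called 0 features under every alternative run, with 879 to 2515 at an unadjusted p under 0.05. Of 29 named genes, 21 kept their sign in all alternatives and 8 did not, with L-FoxO1,3,4 differences that ran from -0.93 to 0.37 for Ankrd55, -0.51 to 0.75 for Abhd1, -0.56 to 0.43 for Socs2, -0.64 to 0.31 for Aacs, -0.45 to 0.07 for Cyp7a1, -0.36 to 0.04 for Slco1a1, -0.14 to 0.22 for Abca8a and -0.16 to 0.12 for Rnf125. No paired analysis was possible because the labels give no replicate numbers shared between groups.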
